A study of Mus musculus with 123 samples.

Results

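Molecular chaperones bind proteins that are unfolded or newly made and keep them from aggregating. The 10 genes described here are the small heat shock proteins Hspb1, Hspb8 and Cryab, the HSP70 genes Hspa1a, Hspa1b and Hspa8, the HSP90 genes Hsp90aa1 and Hsp90ab1, the J protein Dnajb1 and the HSP110 gene Hsph1. The rule that set them lists them by name and uses no measured value, but the list was made with earlier results of these data known. All 10 were found among the 24134 genes of the deposited tables. Levels are given as counts per 1e+06 counts of a library (CPM), and were compared in mouse dorsal root ganglion (DRG) neurons of the side of a sciatic nerve transection (SNT) and of the intact side.

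All mice were 2 months old and had the sciatic nerve cut on the right, and the ganglia of the other side of the same mice were the control. At day 3 the mice were CAST/Eij male X C57BL/6 female F1 animals, which the study's methods give as female. From them 6 libraries of pooled neurons (3 per side), 48 SNT-side single neurons and 22 control-side single neurons were sequenced in reads of 50 bp. At day 7 the mice were C57BL/6 of both sexes, and 33 SNT-side and 14 control-side single neurons were sequenced in reads of 75 bp. The 3 pooled libraries of a side came from 1 lysate that was split into 3 parts, so their spread is technical. The labels give 106 neurons for that lysate. The study's methods give a smaller number. Single neurons were picked by hand after dissociation of the ganglia, and no label ties a neuron to an animal, so that all neurons of 1 side and day were taken as 1 sample. Strain, sex, read length and the day differ together between the single-neuron sets, and their effects on any difference between days cannot be told apart.

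ATP-driven chaperones of the HSP70 and HSP90 families fold client proteins in cycles. J proteins such as DNAJB1 deliver clients to HSP70 and start its ATP hydrolysis, and HSPH1 exchanges its nucleotide. Small heat shock proteins use no ATP: they hold unfolded proteins until HSP70 takes over. HSPB1 is also known for binding the actin and intermediate filament cytoskeleton and for survival of sensory neurons after axotomy, HSPB8 works with the co-chaperone BAG3 in autophagy of misfolded proteins, and CRYAB, first known from the lens, is also made by glial cells. In other cells heat and proteotoxic stress switch on Hspa1a, Hspa1b, Dnajb1, Hsph1 and Hspb1 through heat shock factor 1, while Hspa8 and Hsp90ab1 are made at high levels at rest.

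The sequence upstream of a heat shock gene is where heat shock factor binds, at repeats of the half-site GAA and its complement TTC. RefSeq promoter windows (GRCm38.p6, 250 bases before to 50 after the start) were at hand for 6 of the 10 genes, which were Hspb1, Hspb8, Hspa1a, Hspa1b, Dnajb1 and Hsph1, and not for Cryab, Hspa8, Hsp90aa1 and Hsp90ab1. The windows of the small heat shock proteins that were higher after SNT, of Hsph1 and of the near-identical pair Hspa1a and Hspa1b are shown for 250 bases before to 30 after the start, 5′ to 3′ on the strand of the gene, with head-to-head (GAANNTTC) and tail-to-tail (TTCNNGAA) half-sites in capitals. Hspb1 is at chr5:135887669-135887948 (+), Hspb8 at chr5:116422835-116423114 (-), Hsph1 at chr5:149636286-149636565 (-, the second of its annotated starts), Hspa1a at chr17:34972127-34972406 (-) and Hspa1b at chr17:34959209-34959488 (-).
Hspb1: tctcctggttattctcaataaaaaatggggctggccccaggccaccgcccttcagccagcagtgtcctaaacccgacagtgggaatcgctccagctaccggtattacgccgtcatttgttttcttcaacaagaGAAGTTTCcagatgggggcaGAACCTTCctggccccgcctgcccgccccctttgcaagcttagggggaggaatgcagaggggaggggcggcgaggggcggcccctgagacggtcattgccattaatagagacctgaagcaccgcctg
Hspb8: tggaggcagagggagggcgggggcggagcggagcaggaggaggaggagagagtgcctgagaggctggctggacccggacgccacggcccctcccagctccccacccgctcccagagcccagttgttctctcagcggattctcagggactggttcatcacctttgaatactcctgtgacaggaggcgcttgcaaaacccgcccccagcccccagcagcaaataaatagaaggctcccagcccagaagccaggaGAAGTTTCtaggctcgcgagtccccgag
Hsph1: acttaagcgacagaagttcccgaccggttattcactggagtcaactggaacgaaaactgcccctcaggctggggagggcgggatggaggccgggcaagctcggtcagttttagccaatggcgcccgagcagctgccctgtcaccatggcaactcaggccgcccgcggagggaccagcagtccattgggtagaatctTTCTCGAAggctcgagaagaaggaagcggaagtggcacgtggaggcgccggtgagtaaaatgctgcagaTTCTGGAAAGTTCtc
Hspa1a: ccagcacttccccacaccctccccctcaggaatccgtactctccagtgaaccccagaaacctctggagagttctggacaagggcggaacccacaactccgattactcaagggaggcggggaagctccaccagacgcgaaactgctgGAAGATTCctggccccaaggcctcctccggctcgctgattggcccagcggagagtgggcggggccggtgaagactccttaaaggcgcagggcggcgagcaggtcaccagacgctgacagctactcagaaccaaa
Hspa1b: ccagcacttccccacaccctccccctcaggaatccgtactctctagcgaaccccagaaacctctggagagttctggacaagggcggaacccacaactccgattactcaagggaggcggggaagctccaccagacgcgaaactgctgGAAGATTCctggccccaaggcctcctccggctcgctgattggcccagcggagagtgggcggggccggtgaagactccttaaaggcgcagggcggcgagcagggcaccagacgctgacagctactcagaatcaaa

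Head-to-head half-sites were found in 5 of the 6 genes with a window, all but Dnajb1, against 7.86% of 32851 RefSeq promoter windows of the same length. Hspb1 held 2 of them, and Hspb8 held 1 that starts 3 bases into its transcript. The tail-to-tail form was found in Hsph1 alone, against 8.52% of all windows. Hsph1 also held the full heat shock element of 3 half-sites, which 0.603% of all windows hold. In Hsph1 it starts 16 bases into the transcript from the start shown and 37 bases into that from the other start. The element is a GAANNTTC with a further GAA 2 bases on, searched on both strands and overlapping the shorter forms. The other motifs were likewise searched on both strands. Neither the AP-1 letters TGANTCA nor the CRE letters TGACGTCA, the kinds of site to which ATF3 and JUN bind, were in any of these windows (7.81% and 1.79% of all windows). The windows of Hspa1a and Hspa1b differed at 4 of 300 bases. These matches describe letters and not bound sites.

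The genes lie on 5 chromosomes (GRCm38.p6, a later build than the mm9 named in the submitters' processing notes). Hspb1 (5:135887919-135889563), Hspb8 (5:116408491-116422864) and Hsph1 (5:149616843-149636498) are on chromosome 5, Hspa1a (17:34969359-34972156), Hspa1b (17:34956429-34959238) and Hsp90ab1 (17:45567778-45573261) on 17, Cryab (9:50745951-50756636) and Hspa8 (9:40801276-40805202) on 9, Hsp90aa1 (12:110691036-110696395) on 12 and Dnajb1 (8:83608175-83612653) on 8. Chaperone genes have close copies, and a short read from a shared stretch cannot be placed by its sequence. Of all 50-base windows of the longest RefSeq transcript, 58.8% of those of Hspa1a were also in Hspa1b and 62.3% of those of Hspa1b were also in Hspa1a, so the split of reads between them is uncertain. Windows shared with another transcript made up 60.4% for Hspb1 (mostly Hsp25-ps1), 74.8% for Hspa8 (mostly Gm15459) and 58.5% for Hsp90aa1 (mostly Gm12346), and these 3 pseudogenes are not among the genes of the tables. Cryab shared 19.01% with its neighbour Hspb2, Hsp90ab1 4.49%, Dnajb1 0.441%, and Hspb8 and Hsph1 shared none.

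All 7 sensory neuron markers checked, Tubb3, Snap25, Uchl1, Prph, Rbfox3, Avil and Isl1, had counts in each group of libraries. The study removed 11 picked cells of day 3 as outliers (4 control, 7 SNT), and 106 were kept. In the removed cells glial markers were high and sensory neuron markers low, and they enter no main comparison below. Total counts ran from 563462 to 839135 in the pooled control libraries, from 1148849 to 2003817 in the pooled SNT libraries and from 261351 to 1849130 in the kept neurons. The pooled columns are named for the SNT or the control side, but an identifier line in the same table pairs them with the opposite sides and the source label calls all 6 intact. Names were used here, and under the other pairing each pooled difference given here would change its sign. Atf3, the transcription factor induced by axotomy, was at 1690, 1453 and 1503 CPM in the libraries named for SNT and at 7.78, 20.4 and 10.1 CPM in those named for the control side. Summed over 10 glial markers, the pooled control libraries held 12617 to 15222 CPM and the SNT libraries 6201 to 6995 CPM, with Apoe and Fabp7 called lower and Prx called higher on the SNT side. Markers of nonpeptidergic nociceptors (NP, 7 genes) summed to 2926 to 3055 CPM on the control side and 427 to 512 CPM on the SNT side, with Mrgprd at 957 ± 61.7 and 1.13 ± 1.45 CPM (SD, n = 3). Peptidergic nociceptor markers (PEP, 6 genes) summed to 1862 to 2304 and 1202 to 1346 CPM and markers of unmyelinated low-threshold mechanoreceptors (C-LTMR, 4 genes) to 448 to 585 and 71.8 to 129 CPM. Markers of large myelinated neurons (LM, 9 genes) were higher on the SNT side, at 3354 to 4025 CPM against 2560 to 2870 CPM, with Nefh, Nefm, Ntrk3 and Cntnap2 called higher and Vsnl1 lower. The part of these markers in the differences below, that of Hspb1 included, was not tested. In pooled neurons, fewer cells of a type and less RNA per cell cannot be told apart.

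In the pooled neurons Hspb1 was the member with the largest increase on the SNT side. Its level was 389, 522 and 524 CPM in the control libraries and 2771, 3795 and 3878 CPM in the SNT libraries. All SNT libraries lay above all control libraries, and the means were 478 ± 77.3 and 3481 ± 616 CPM (SD, n = 3), a log2 change of 2.86 (SE 0.14, adjusted p = 6.4e-20, edgeR). Hspb1 was the only member that passed both the adjusted p of 0.05 and a 2-fold change upward, 1 of 10 against 8.853% of the 13509 genes tested. No member passed both limits downward, against 7.114% of genes; at an unadjusted p of 0.05 edgeR, DESeq2 and limma gave 0 lower members as well.

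Hspb8, the small heat shock protein of the BAG3 complex, was at 367, 379 and 444 CPM on the control side and at 816, 725 and 675 CPM on the SNT side. The sides did not overlap, and Hspb8 was higher by 0.90 on the log2 scale (SE 0.13, adjusted p = 9.7e-07, edgeR), under the 2-fold limit. Cryab, the third small heat shock protein, was at 140, 179 and 148 CPM on the control side and at 138, 183 and 155 CPM on the SNT side. These libraries overlapped fully, with a log2 difference of 0.02 (SE 0.17, adjusted p = 0.95, edgeR), whereas the summed glial markers were lower in each SNT library than in any control library.

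Hsp90aa1, the stress-inducible cytosolic HSP90, was at 1331, 1206 and 1487 CPM on the control side and at 2238, 2095 and 2082 CPM on the SNT side. It was higher by 0.68 on the log2 scale (SE 0.11, adjusted p = 1.0e-05, edgeR) with no overlap of the sides. Its constitutive partner Hsp90ab1 was at 3157, 3662 and 3876 CPM against 3624, 3988 and 3970 CPM, which overlapped, and the log2 difference was 0.12 (SE 0.11, adjusted p = 0.47, edgeR). Dnajb1, the main J protein of the inducible HSP70, was at 68.7, 63.4 and 62.2 CPM on the control side and at 96.1, 97.7 and 109.6 CPM on the SNT side. It rose without overlap from a mean of 64.8 ± 3.5 to 101 ± 7.4 CPM (SD, n = 3), a log2 change of 0.64 (SE 0.21, adjusted p = 0.017, edgeR). Dnajb1 no longer passed without SNT replicate 3 (adjusted p = 0.084, edgeR) or under scaling by library size alone (adjusted p = 0.080, edgeR).

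Hspa8, the constitutive HSP70, held the most counts of the 10 genes. Its 3 SNT libraries, at 6737, 6705 and 6346 CPM, lay above the control libraries at 5671, 6179 and 5900 CPM. The log2 difference of 0.16 (SE 0.10) had an adjusted p of 0.25 (edgeR), and it was -0.00062 under scaling by library size alone. Hsph1, the HSP110 nucleotide exchange factor, was at 240, 230 and 193 CPM on the control side and at 228, 199 and 180 CPM on the SNT side, a log2 difference of -0.13 (SE 0.16, adjusted p = 0.60, edgeR).

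The heat-inducible pair Hspa1a and Hspa1b was close to the floor of detection on both sides. Hspa1a was at 2.59, 0 and 6.72 CPM on the control side and at 13.1, 8.30 and 9.05 CPM on the SNT side. All SNT libraries were above the control ones, and the log2 difference was 1.85 (SE 0.75, adjusted p = 0.066, edgeR). Without control replicate 3, the control library with the most Hspa1a, it was 2.97 with an adjusted p of 0.024 (edgeR), which would make 2 members called, and without control replicate 2 it was 1.17. Hspa1b had counts in 1 control library (6.79 CPM) and 1 SNT library (2.66 CPM), with a log2 difference of -1.21 (SE 1.31, adjusted p = 0.56, edgeR). That value rests on single libraries: it ran from -0.64 without SNT replicate 1 to -4.37 without SNT replicate 3, which leaves the SNT side at 0, and without control replicate 2 the gene was under the filter.

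By the adjusted p alone, 4 members were higher (Hspb1, Hspb8, Hsp90aa1 and Dnajb1), against 14.01% of all genes tested, and 0 were lower, against 10.79%. DESeq2 and limma also gave 4 higher and 0 lower. For 6 members all SNT libraries lay above all control libraries, against 21.05% of genes, and for 0 they lay below, against 16.61%. The median log2 change of the 10 was 0.40, beside 0.02 for all genes. Since the members were listed with earlier results of these data known, these shares are descriptions and not a test of the set.

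**Figure D1:**
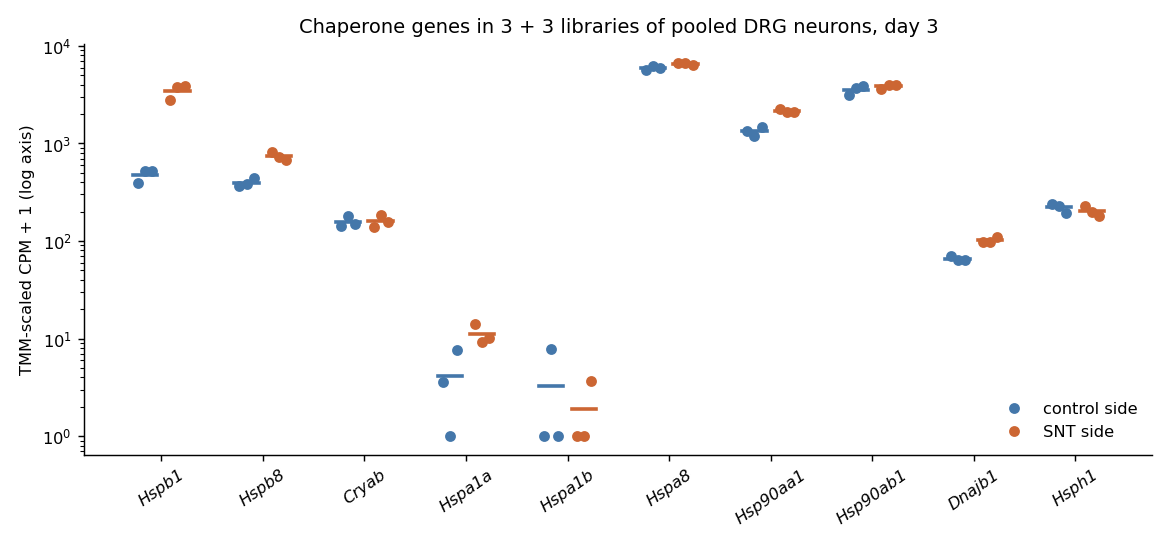
Level of each of the 10 genes in the 6 libraries of pooled neurons at day 3, as TMM-scaled CPM + 1 on a log axis. Points are libraries (3 control side in blue, 3 SNT side in orange) and bars their means: the SNT points of Hspb1 (2771 to 3878 CPM) stand clear of the control points (389 to 524 CPM), whereas those of Cryab, Hsp90ab1 and Hsph1 overlap.

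Levels of different genes can be compared only per length, so CPM was divided by the merged exon length of the RefSeq transcripts in GENCODE M21. On the control side Hspa8 had the highest level per length, 2472 ± 106 CPM per kb, followed by Hsp90ab1 at 1415 ± 146, Hspb1 at 530 ± 85.6 and Hsp90aa1 at 409 ± 42.96 (SD, n = 3). Hspb1 and Hsp90aa1 overlapped, since the libraries ran from 431 to 580 and from 367 to 453 CPM per kb. Hspb8 (218 ± 22.6), Cryab (129 ± 17.02), Hsph1 (58.1 ± 6.5), Dnajb1 (20.2 ± 1.1) and the Hspa1a and Hspa1b pair (1.05 ± 1.14 and 0.808 ± 1.40) followed. On the SNT side Hspb1 came first at 3855 ± 683 CPM per kb, with its lowest library (3069) above the highest of Hspa8 (2814), and the order of the other 9 among themselves was the same as on the control side. By library totals, the 10 genes together made up 1.28% of the counts of the pooled control libraries and 1.64% of those of the SNT libraries.

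Of 68 other chaperone and co-chaperone genes, 64 could be tested in the pooled neurons and 4 (Hspb3, Hspb9, Cryaa and Hsf5) were below 1 CPM. Bag3, the partner of HSPB8, was the 1 gene of 64 called higher (8.853% of all genes), at 147 ± 3.8 and 308 ± 5.3 CPM (SD, n = 3; log2 change 1.07, SE 0.15, adjusted p = 5.9e-07, edgeR). Bag2, a nucleotide exchange factor that inhibits the ubiquitin ligase CHIP, was the 1 gene called lower (7.114% of all genes), at 64.0 ± 5.0 and 11.5 ± 9.5 CPM (log2 change -2.44, SE 0.35, adjusted p = 7.8e-07, edgeR). By the adjusted p alone 12 were higher and 8 lower of 64, beside 14.01% and 10.79% of all genes. Scaled by library size alone, which takes the median over all genes from 0.02 to -0.14 on the log2 scale, Bag3 was no longer called, 0 genes were called higher and 3 lower, and the sizes below would shift with it.

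Among the genes that passed the adjusted p alone, 5 of the 8 subunits of the TRiC/CCT chaperonin, which folds actin and tubulin, were higher by less than 2-fold, a family named after its values were seen and beside 14.01% of all genes: Tcp1 by 0.39, Cct3 by 0.71, Cct4 by 0.52, Cct5 by 0.74 and Cct8 by 0.70 on the log2 scale. Of the 16 J proteins listed, Dnajb2 (0.94), Dnajc7 (0.92) and Dnajc5 (0.51) were higher and Dnajb14 (-0.86), Dnajc3 (-0.81) and Dnaja2 (-0.45) lower. Co-chaperones of HSP90 and HSP70 were split as well. Ahsa1 (0.65), which activates the HSP90 ATPase, Cdc37 (0.54), which brings kinases to HSP90, and Stub1 (0.53), the ligase CHIP, were higher. Chordc1 (-0.73), Bag5 (-0.70) and Fkbp4 (-0.42) were lower, as was Hspa13 (-0.88), a microsomal member of the HSP70 family. The median log2 change of the 64 genes was -0.05, and Hsf1, Hsf2, Hsf4 and the HSF1 inhibitor Hsbp1 did not pass (edgeR).

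In single neurons at day 3, Hspb1 was again the member that differed most. Its control-side neurons ran from 11.3 to 2388 CPM with a median of 646 CPM, and its SNT-side neurons from 19.9 to 5337 CPM with a median of 2372 CPM. The ranges overlapped, and 18 of 41 SNT-side neurons lay above each of the 18 control-side neurons. Means over neurons were 761 ± 742 and 2085 ± 1472 CPM (SD over cells), a log2 ratio of mean CPM + 1 of 1.45. From summed counts the levels were 603 CPM (95% Poisson interval 591 to 615) and 2190 CPM (2177 to 2203), intervals that cover counting error only. With 1 sample per side the difference has no replicate check and no test. Hspb1 was the 1 member past 2-fold upward, against 7.121% of 13663 genes, and 0 members were past 2-fold downward, against 6.075%. The sides differed in cluster names: 8 of 18 control-side and 8 of 41 SNT-side neurons were NP-like by the clusters described below. NP-like was the class with the least Hspb1. SNT-side PEP-like neurons had 1583 ± 1127 CPM of P2rx3, an NP marker, and 1801 ± 5030 CPM of Calca. Control-side PEP-like neurons had 56.4 ± 50.7 CPM of P2rx3 and 13752 ± 2960 CPM of Calca. Whether the sides differed in the neurons picked or only in these names was not tested. Over all neurons Calca, a peptidergic marker, had means of 4942 ± 5998 and 1796 ± 3789 CPM on the control and SNT sides. Those of Pvalb, a marker of proprioceptors, were 1.98 ± 3.79 and 38.05 ± 105 CPM. By cluster name the log2 ratio of Hspb1 was 1.67 in NP-like neurons, 1.18 in PEP-like neurons and 0.51 in LM-like neurons (0.84 to 0.89 for PEP-like and 0.71 to 0.85 for LM-like neurons under the other clusterings), where the clusters that held most of the PEP-like and LM-like neurons differed between the sides. Atf3 averaged 12.9 CPM in SNT-side NP-like neurons, beside 9.34 CPM in control-side ones. In SNT-side PEP-like and LM-like neurons it averaged 2184 and 1407 CPM. The Hspb1 ratios by cluster name thus do not measure the injury response of a class. The part of the class mix in the ratio over all neurons was not tested.

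Hspb8 had a narrow spread in control-side neurons, from 236 to 689 CPM with a median of 501 CPM. SNT-side neurons ran from 398 to 2037 CPM with a median of 815 CPM, and 23 of 41 were above each control-side neuron. The log2 ratio was 0.75. Hsp90aa1 had a log2 ratio of 0.27, from a median of 1660 CPM (1151 to 2587) to 1950 CPM (1122 to 3750), and 8 SNT-side neurons above each control-side one. Hsph1 was the member with the most negative ratio, -0.67: its median was 297 CPM on the control side (105 to 479) and 183 CPM on the SNT side (65.2 to 465). For Hsph1 the ranges overlapped almost fully, with 2 SNT-side neurons below each control-side neuron. The quartiles did not overlap: the lower one was 257 CPM on the control side and the upper one 213 CPM on the SNT side. A single control-side neuron had 105 CPM, and the next lowest had 211 CPM.

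Of the other 6 members none was past 2-fold by the ratio of means at day 3. Hspa8 had means of 5497 ± 874 and 5169 ± 961 CPM (log2 ratio -0.09), and Hsp90ab1 of 3592 ± 700 and 3179 ± 550 CPM (-0.18). Dnajb1 had means of 80.8 ± 35.2 and 86.4 ± 40.7 CPM (0.10). In Cryab the mean went from 55.9 ± 72.3 to 77.0 ± 152 CPM (0.45), with 1 SNT-side neuron at 976 CPM, and the log2 ratio of medians, 1.48, was past 2-fold. Hspa1a had counts in 13 of 18 control-side and 37 of 41 SNT-side neurons at medians of 4.80 and 6.40 CPM (0.61), and Hspa1b in 7 of 18 and 17 of 41 (-0.17). SNT-side neurons were deeper (median total 1323930 against 862619), and with each neuron thinned to 200000 counts the same member alone was past 2-fold, with Hspb1 at 1.44. The median log2 ratio of the 10 members was 0.18, beside -0.04 for all genes.

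At day 7 no member was past 2-fold upward, against 6.374% of 13320 genes, and 2 were past it downward, Cryab and Hspa1a, against 3.491%. Hspb1 ran from 23.9 to 1450 CPM with a median of 1019 CPM on the control side and from 3.181 to 2000 CPM with a median of 641 CPM on the SNT side. Of 33 SNT-side neurons 5 lay above and 5 below all control-side neurons, so that the SNT side was wider in both directions, and the log2 ratio of means was -0.25. Hspb1 ran from 580 to 2000 CPM in the 12 SNT-side neurons with Atf3 at 704 CPM or more. It ran from 3.181 to 1129 CPM in the 21 with Atf3 at 13.9 CPM or less. Hspb8 had means of 515 ± 215 and 515 ± 176 CPM, a log2 ratio of 0.00.

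Cryab had means of 115 ± 119 CPM on the control side and 52.0 ± 58.4 CPM on the SNT side at day 7 (log2 ratio -1.13), with 4 of 14 control-side neurons above each SNT-side neuron and zero counts in 7 of 33 SNT-side and 2 of 14 control-side neurons. From summed counts it was at 109 CPM (95% Poisson interval 103 to 115) and 51.5 CPM (48.3 to 54.7). The summed glial markers of the same neurons had medians of 5165 CPM (1246 to 9741) on the control side and 1491 CPM (510 to 12929) on the SNT side, and their part in the lower Cryab was not tested. Thinned to 200000 counts, the Cryab ratio was -0.95 and no longer past 2-fold. Hspa1a was at a median of 9.63 CPM (0 to 39.9) on the control side and 3.87 CPM (0 to 18.7) on the SNT side, with a log2 ratio of -1.21 that shrank to -0.60 with 10 CPM in place of 1 CPM added to the means.

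Hsp90aa1 had the largest positive ratio of day 7, 0.63. Its median went from 1662 CPM (1250 to 3055) to 2783 CPM (1442 to 4695), and 12 of 33 SNT-side neurons were above each control-side neuron. Hspa8, whose protein works upstream of HSP90 on many clients, went the other way: its median was 4915 CPM (2459 to 7466) on the control side and 3292 CPM (1931 to 5674) on the SNT side, with 6 SNT-side neurons below each control-side one (log2 ratio -0.52). Hsph1 was lower too, with a median of 372 CPM (244 to 619) against 276 CPM (133 to 496), 12 of 33 SNT-side neurons below each control-side neuron, and a log2 ratio of -0.46. Hsp90ab1 (-0.14), Dnajb1 (-0.04) and Hspa1b (-0.63, counts in 6 of 14 and 11 of 33 neurons) made up the rest. Taken within each sex, the ratios of Hsp90aa1 were 0.59 in female and 0.66 in male neurons, those of Hspa8 -0.48 and -0.56, those of Hsph1 -0.50 and -0.43, those of Cryab -1.30 and -1.07 and those of Hspb1 -0.16 and -0.34. The median log2 ratio of the 10 members was -0.35.

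**Figure D2:**
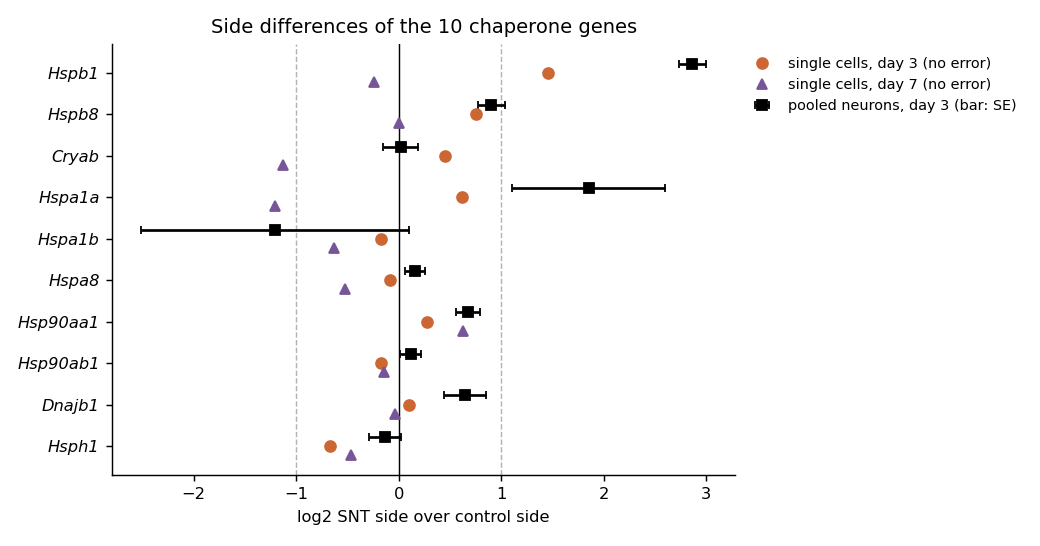
Log2 of the SNT side over the control side for each member: pooled neurons at day 3 (squares, edgeR log2 change with bars of 1 SE), single neurons at day 3 (circles) and at day 7 (triangles), both as log2 ratios of mean CPM + 1 with no error. Dashed lines mark 2-fold; Hspb1 lies beyond it at day 3 in both kinds of library (2.86 and 1.45) and at -0.25 at day 7.

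**Figure D3:**
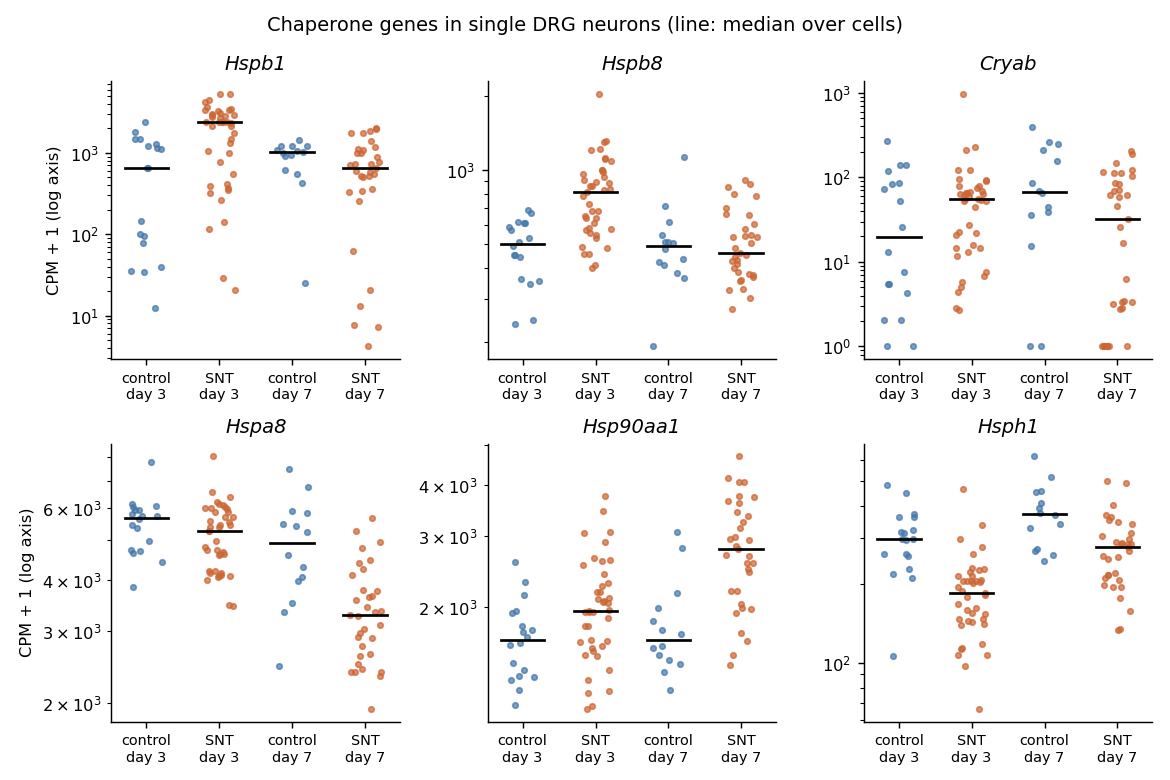
CPM + 1 of 6 members in each kept neuron on log axes, by side and day (18, 41, 14 and 33 neurons), with the median of a group as a line. Hspb1 spreads from 11.3 to 2388 CPM over the control-side neurons of day 3, while Hspa8 stays between 3839 and 7780 CPM there.

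Among control-side neurons the members differed in how evenly they were expressed. At day 3 the coefficient of variation over 18 neurons was 15.9% for Hspa8, 19.5% for Hsp90ab1, 22.8% for Hsp90aa1, 28.1% for Hspb8 and 29.1% for Hsph1, and it was 97.5% for Hspb1 and 129% for Cryab. Neurons were clustered without the members and without genes called between the pooled libraries, and clusters were named by marker lists. Hspb1 was low in the 8 NP-like neurons, the small nonpeptidergic nociceptors, from 11.3 to 144 CPM with a mean of 66.9 ± 44.9 CPM (SD over cells). It was at 1166 ± 508 CPM in 5 PEP-like neurons (peptidergic nociceptors), 1695 ± 616 CPM in 3 LM-like neurons (large myelinated; 2 of them in a cluster led by S100a16 with no LM marker among its 10 leading genes, which other clusterings joined to the PEP-like neurons) and 1127 ± 14.6 CPM in 2 C-LTMR-like neurons. No NP-like neuron reached any of the other 10 neurons, of which the lowest had 642 CPM. At day 7 the 1 NP-like neuron had 23.9 CPM, whereas 6 PEP-like neurons had 921 ± 288, 4 LM-like neurons 916 ± 335 and 3 neurons of an unnamed cluster led by Rgs5 1155 ± 265 CPM.

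Cryab followed the same order on the control side at day 3, with 3.322 ± 4.04 CPM in NP-like, 85.2 ± 31.8 CPM in PEP-like and 174 ± 80.6 CPM in LM-like neurons, and 277 ± 77.9 CPM in the LM-like neurons of day 7. Hsp90ab1 ran the opposite way, with 4074 ± 396 CPM in NP-like, 3248 ± 422 CPM in PEP-like and 2547 ± 381 CPM in LM-like neurons at day 3, and 3491 ± 392 CPM in PEP-like and 2696 ± 576 CPM in LM-like neurons at day 7. Hspb8 was at 572 ± 83.9 CPM in NP-like, 471 ± 128 CPM in PEP-like and 375 ± 143 CPM in LM-like neurons at day 3. Over the 18 control-side neurons of day 3 the rank correlation with Nefh, the heavy neurofilament of large neurons, was 0.74 for Cryab and -0.66 for Hsp90ab1. Over the 14 neurons of day 7 it was 0.60 for Cryab and -0.78 for Hsp90ab1. These correlations are descriptions over neurons that share classes and depth, and carry no p.

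**Figure D4:**
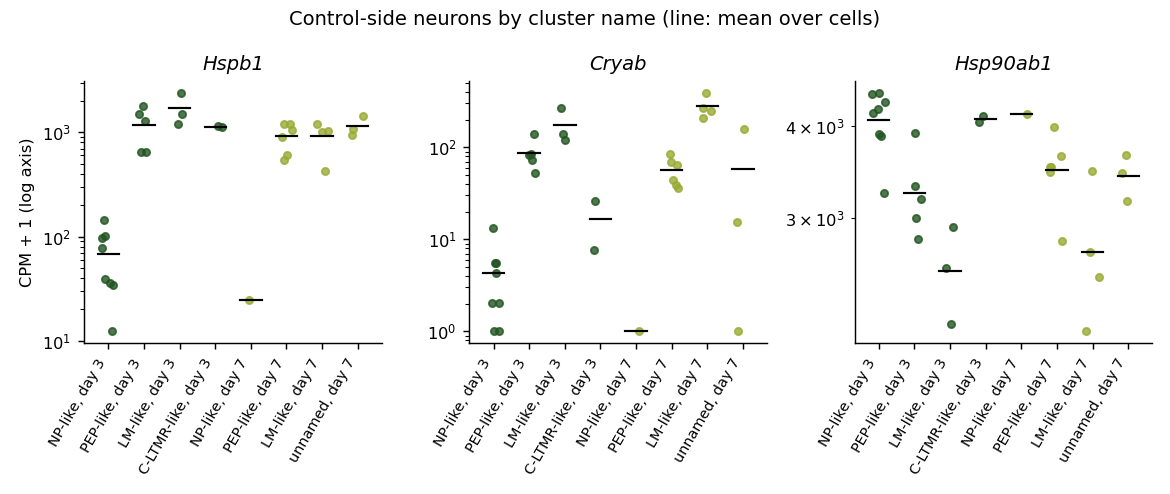
Hspb1, Cryab and Hsp90ab1 in control-side neurons as CPM + 1 on log axes, by the name of the neuron's cluster and by day (dark points day 3, light points day 7), with the mean as a line. NP-like neurons hold the lowest Hspb1 (11.3 to 144 CPM at day 3) and Cryab, and, with the C-LTMR-like neurons, the highest mean Hsp90ab1 of day 3.

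On the SNT side at day 3, Hspb1 was again lowest in the NP-like clusters. In the cluster led by Mrgprd, Lpar3 and Prkcq (NP-like) 6 control-side neurons had 66.6 ± 48.8 CPM and 3 SNT-side neurons 133 ± 189 CPM, and in that led by Mrgprb4 and Galr1 (NP-like, though with Calca at 4969 CPM on the control side) 2 control-side neurons had 67.8 ± 46.8 CPM and 5 SNT-side neurons 264 ± 138 CPM, from 115 to 409 CPM. Atf3 in these 8 SNT-side neurons stayed at or below 23.04 CPM. In the cluster led by Car3 (LM-like) 12 SNT-side neurons had 2439 ± 1528 CPM of Hspb1 and the 1 control-side neuron 1487 CPM. Clusters led by Anxa1 and S100a8 (12 neurons) and by Npy1r (5 neurons) held SNT-side neurons alone and had 2662 ± 614 and 2972 ± 1025 CPM. Both scored highest for PEP markers but had none of them among their 10 leading genes, and the first had 2162 CPM of P2rx3 and 186 CPM of Calca on average, so they are given here by their leading genes.

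Hspb8 and Hsph1 were also at their extremes in the clusters that held SNT-side neurons alone. In the Anxa1-led cluster Hspb8 was at 1166 ± 310 CPM, from 889 to 2037 CPM, all above the highest control-side neuron (689 CPM), and Hsph1 was at 146 ± 47.6 CPM. The Npy1r-led cluster had 831 ± 177 CPM of Hspb8 and 140 ± 45.1 CPM of Hsph1. In the 3 SNT-side neurons of the Mrgprd-led cluster these genes were at 524 ± 34.5 and 282 ± 53.5 CPM, beside 592 ± 80.3 and 317 ± 40.1 CPM in its 6 control-side neurons. A single SNT-side neuron in the PEP-like cluster led by Cldn9 had 778 CPM of Hspb1, 454 CPM of Hspb8 and 0.65 CPM of Atf3.

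Clusters of day 7 held both the lowest and the highest Hspb1 on the SNT side. A cluster of 5 SNT-side neurons with Whrn, Pvalb and Runx3 among its leading genes (LM-like; Pvalb and Runx3 mark proprioceptors) had 18.0 ± 24.6 CPM of Hspb1, from 3.181 to 61.5 CPM, with 669 ± 164 CPM of Hspb8, 6.50 ± 13.6 CPM of Cryab and 11.2 ± 3.94 CPM of Atf3. No control-side neuron fell into that cluster, so its level without injury was not measured here. Unnamed clusters led by Nnat and Slc6a4 (8 neurons) and by Gpr133 (3 neurons), both of SNT-side neurons with Atf3 at 1183 ± 301 and 959 ± 226 CPM, had 1326 ± 539 and 1248 ± 532 CPM of Hspb1. In the 3 clusters with neurons of both sides the mean of Hspb1 was lower on the SNT side, with overlapping ranges in each: 435 ± 162 CPM in 7 neurons beside 921 ± 288 CPM in 6 in the PEP-like cluster led by Comp, 743 ± 265 beside 1155 ± 265 CPM in that led by Rgs5, and, in the LM-like cluster led by Rem2, 2 SNT-side neurons at 1089 and 19.6 CPM beside 916 ± 335 CPM in 4 control-side neurons. Without the lower of these 2 neurons the direction in the Rem2-led cluster turns. Atf3 was at 0 in all 7 SNT-side neurons of the Comp-led cluster. It averaged 4.14 CPM in the 4 SNT-side neurons of the Rgs5-led cluster and 4.49 CPM in the 2 of the Rem2-led cluster. The SNT-side neurons of these 3 clusters were thus all in the lower range of Atf3 given below.

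Atf3 split the SNT-side neurons into separate ranges with a wide gap. At day 3 it was at 0.65 to 23.04 CPM in 11 neurons and at 951 to 4436 CPM in 30, and at day 7 at 0 to 13.9 CPM in 21 and at 704 to 1778 CPM in 12. Within the upper range the rank correlation of Hspb8 with Atf3 was 0.61 over 30 neurons of day 3 and 0.31 over 12 of day 7. For Hspb1 it was 0.10 at day 3 and 0.68 at day 7. Hsph1 gave -0.05 and -0.52, Hsp90aa1 0.18 and -0.10, Dnajb1 -0.52 and 0.05, Hsp90ab1 0.57 and 0.24, and Cryab -0.44 and -0.34. Within the upper range, Hspb8 and Cryab were the members whose correlations were beyond 0.3 with the same sign on both days. Over both ranges together, the 41 SNT-side neurons of day 3, the correlation with Atf3 was 0.61 for Hspb1, 0.77 for Hspb8 and -0.03 for Cryab. Hspb1 ran from 19.9 to 778 CPM in the 11 neurons of the lower range of day 3. It ran from 317 to 5337 CPM in the 30 of the upper range. The 11 included all 8 NP-like neurons of that side. The neurons of a day share classes and depth, and no p is given.

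**Figure D5:**
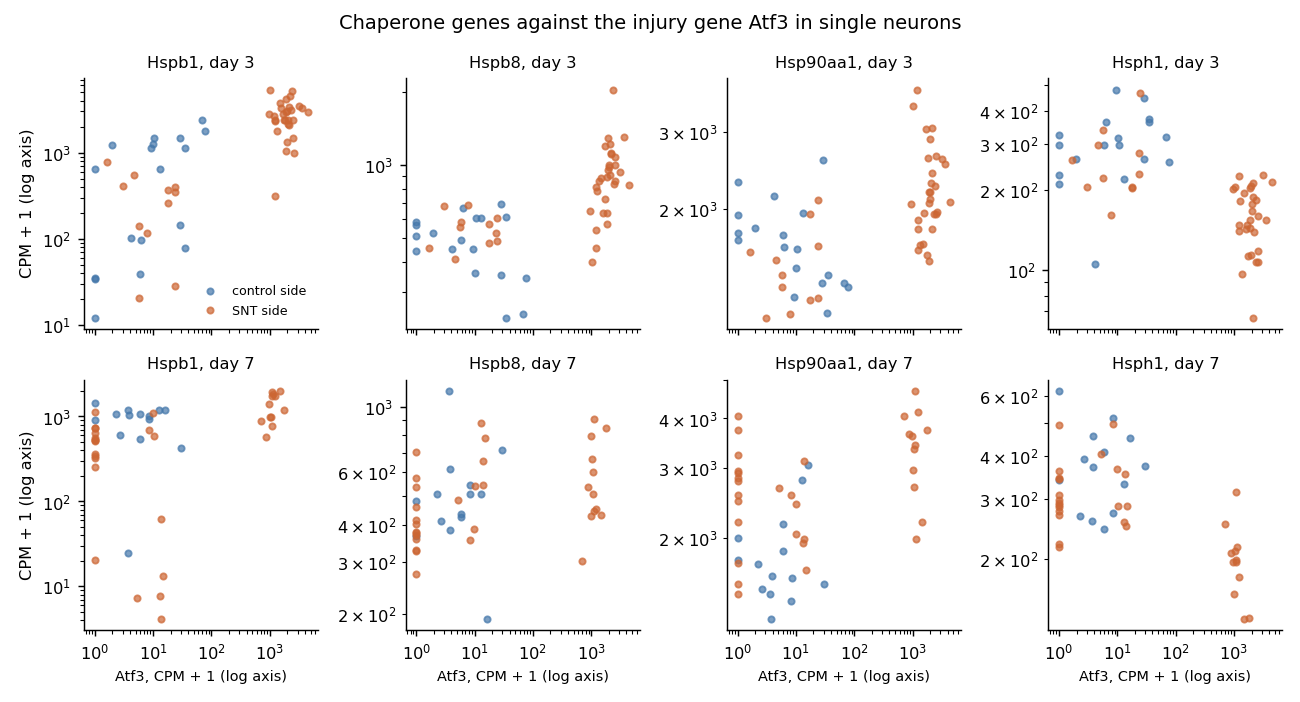
Hspb1, Hspb8, Hsp90aa1 and Hsph1 against Atf3 in single neurons of day 3 (top) and day 7 (bottom), each point a neuron (control side in blue, SNT side in orange), both axes as CPM + 1 on log scales. SNT-side neurons lie at Atf3 levels either up to 23.04 CPM or from 704 CPM upward, with none in between.

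Cryab moved with glial transcripts from neuron to neuron. Its rank correlation with the summed level of 10 glial markers was 0.90 over 18 control-side and 0.81 over 41 SNT-side neurons of day 3, and 0.72 over 14 and 0.80 over 33 neurons of day 7. Hspb1 reached 0.79 with the same sum on the control side of day 3, where its levels are split by class, and 0.07, 0.02 and 0.01 in the SNT-side neurons of day 3, the control-side and the SNT-side neurons of day 7. The glial sum was 1097 to 14459 CPM in control-side and 959 to 10960 CPM in SNT-side neurons of day 3, and its part in Cryab was not tested.

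Hspa8 and Hsp90aa1 were negatively correlated at day 7, at -0.73 over 33 SNT-side and -0.67 over 14 control-side neurons, and at -0.39 over 41 and -0.17 over 18 neurons of day 3. Over the 59 kept neurons of day 3, the 5 genes most like Hspb1 of 9277 that averaged 10 CPM or more were Srxn1 (rank correlation 0.83), Bmp1 (0.82), 1700025G04Rik (0.81), Hn1 (0.81) and Cdkn1a (0.80). Over the 47 neurons of day 7 the same genes correlated with Hspb1 at 0.52, 0.40, 0.25, 0.57 and 0.45. Within the SNT side of day 3 they stood at 0.80, 0.74, 0.73, 0.79 and 0.74, and within its control side at 0.36, 0.71, 0.70, 0.37 and 0.54.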

How the data were processed

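Per the labels, reads of Smart-seq2 libraries, which carry no molecular identifiers and no strand, were processed with CASAVA 1.8.2, Bowtie2 and RSEM on build mm9 (submitters' processing notes). The deposited tables are named TPM but hold the authors' expected counts, since library totals differ and 60.7% to 93.6% of the values above 0 are whole. Here the counts were rounded for pooled libraries and scaled to 1e+06 per library (CPM) for single neurons. Pooled libraries were fitted with edgeR 4.0.16 (quasi-likelihood test, TMM factors, genes averaging 1 CPM or more, Benjamini-Hochberg adjustment over 13509 genes). To be called, a gene had to reach an adjusted p under 0.05 with more than 1 on the log2 scale. In counts simulated from the control means and the totals of these libraries, 81.4% of changes of log2 1.5 were called. The simulation used a fixed dispersion that was not estimated from these libraries, and changed only genes at 10 CPM or more. It thus does not give the share for real changes here, nor for Hspa1a and Hspa1b, whose control means were lower. limma 3.58.1, DESeq2 1.42.0, other scaling and filters, a replicate block and the removal of single libraries were alternatives. Since the 3 libraries of a side share a lysate, p-values measure the spread between these libraries only. No pair of libraries was identical.

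Single neurons have no test. Log2 ratios are of mean CPM + 1, understating changes of low genes, and neurons were picked singly, so doublets were not searched for. Clusters came from Ward's method on 10 principal components of 1000 variable genes with scikit-learn 1.9.0. A cluster took the name of the class with the highest mean marker score where that score was positive and at least 3 of its markers were detected. It stayed unnamed where another class had more markers among its 10 leading genes. The neurons of C57BL/6 mice, whose protocol label names both days, were placed at day 7 by their titles. The design fixed the named genes: all members, called co-chaperones with at least 10 CPM (at most 10), the 5 genes most like Hspb1, and class, injury and other marker genes. Chaperone genes that passed the adjusted p alone, and leading genes of clusters, were named after their values were seen. Members and lists were chosen with earlier results of these data known.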

Additional observations from a re-analysis of the deposited data

Results flagged for a closer look

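In single neurons some members had log2 ratios of opposite sign at day 3 and day 7: Hspb1 at 1.45 and -0.25, Cryab at 0.45 and -1.13, Hspa1a at 0.61 and -1.21, and Dnajb1 at 0.10 and -0.041. The SNT sides also differed in Atf3, which was in its upper range in 30 neurons and its lower range in 11 at day 3. At day 7 it was in the upper range in 12 neurons and in the lower range in 21. With 1 sample per side and day these differences between days were not tested. Strain, read length, sex, day and the share of neurons with high Atf3 cannot be told apart in them.

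Female and male neurons of day 7 gave opposite signs for Hspb8 (0.34 and -0.30) and for Dnajb1 (0.086 and -0.18). Neither difference between sexes was tested, and each rests on 7 control-side neurons per sex with 16 female and 17 male SNT-side neurons.

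The 11 cells that the study removed as outliers stood out in Cryab and Hspa1a. Cryab was at 773 CPM or more in the 4 of the control side (mean 1141 ± 461 CPM, SD over cells) and at 706 CPM or more in the 7 of the SNT side (803 ± 76.1 CPM), while the highest kept neurons of day 3 had 267 CPM on the control side and 976 CPM on the SNT side. Hspa1a was at 15.4 CPM or more in the 7 of the SNT side (69.5 ± 58.9 CPM), while the highest kept neurons had 11.1 CPM on the control side and 49.3 CPM on the SNT side, and the 4 outliers of the control side had 1.77 ± 2.06 CPM. In these 11 cells the summed glial markers ran from 39660 to 99349 CPM and the summed sensory neuron markers from 249 to 3674 CPM, against at most 14459 and at least 8811 CPM in the kept neurons of day 3. Hspa8 (at most 1749 CPM), Hsp90aa1 (at most 837 CPM) and Hspb8 (at most 109 CPM) were lower in each of the 11 than in any kept neuron of day 3.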

How the results depend on the processing

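In pooled neurons the numbers of genes called were within 1.5 times of the main values under 46 of 52 combinations of count and alternative. Scaling by library size alone, under which the median over all genes went from 0.02 to -0.14 on the log2 scale and the calls from 1196 higher and 961 lower to 980 and 1264, gave 0 other chaperone genes higher and 3 lower (Bag2, Hspa13 and Dnajb14), and turned Cryab to -0.14, Hspa8 to -0.00062 and Hsp90ab1 to -0.043. The filter at a mean of 10 CPM turned Cryab to -0.0090. With each library left out, members called higher numbered 1 to 2 and members called lower 0 to 0, other chaperone genes higher 1 to 3 and lower 1 to 3, and Cryab lay between -0.069 and 0.13. Without SNT replicate 1 the higher ones were Bag3, Dnajb2 and Fkbp5 and the lower ones Bag2 and Dnajb14, and without control replicate 2 the lower ones were Bag2, Hspa13 and Hspa1l. Library numbers did not pair the sides (correlations of deviations 0.13, 0.007 and -0.03; library 1 alone correlated best with its own number), and the replicate block gave the same counts of 1 and 0 members and 1 and 1 other genes. In single neurons of day 3, medians in place of means (Hspb1 and Cryab) and all cells with the outliers (Hspb1 and Hspa1a) each put 2 members past 2-fold upward, and with the outliers Cryab was at -0.47. At day 7, 10 CPM added to the means (Cryab alone) and thinning (Hspa1a alone) each left 1 member past 2-fold downward. Levels of Hspb1 and Cryab by class in control-side neurons stayed within 1 SD under both other clusterings, whereas Hspb1 in SNT-side LM-like neurons of day 7 went from 171 ± 405 CPM in 7 to 836 CPM in 18 neurons when clustered by class markers alone. The cause of these shifts was not tested. Depth limits Hspa1a and Hspa1b most, which had a few counts per library.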
